A study of Mus musculus with 12 samples.

Results

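The 6 genes described here encode proteins that make, break down or sense adenosine, and enzymes that consume NAD outside the cell. They are Entpd1, Nt5e, Ada, Adora2a, Cd38 and Bst1, picked by name from the 750 genes under study on an nCounter mouse immune panel. The choice was made with earlier results of these data known, so counts of these genes set against all genes are a description. Bst1 was included because of its strong rise in tumors given 2 doses, so its levels are given as a description, with no test. All 6 genes lay above background in all 12 tumors, background being the mean plus 2 SD of a tumor's negative control probes.

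Extracellular ATP is released by stressed and dying cells and alerts the immune system. CD39, the product of Entpd1, strips it to AMP, and CD73, the product of Nt5e, turns AMP into adenosine. Adenosine deaminase, the product of Ada, removes adenosine by turning it into inosine. The adenosine receptor that Adora2a encodes senses adenosine on T cells, natural killer (NK) cells and myeloid cells, raises their cyclic AMP and dampens their activity. CD38 and its relative CD157, the products of Cd38 and Bst1, cleave NAD on the cell surface, releasing nicotinamide. CD38 is carried by many activated lymphocytes and myeloid cells, and CD157 by myeloid cells, B cell precursors and stromal cells.

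The tumors came from 12 C57BL/6 mice (Taconic) that carried B16F10 melanoma, a single transplanted mouse line, in the flank. All received injections into the tumor, starting on tumor day 6, with 3 tumors in each of 4 groups. Saline tumors were removed 2 days after an injection of saline. Early single-dose tumors were removed 2 days, and late single-dose tumors 8 days, after 1 dose of interleukin-2 and interleukin-12 fused to a collagen-binding protein. Repeat-dose tumors received a further dose of both fusion proteins 6 days after the first and were removed 2 days later, 8 days after the first. Saline tumors of the later age are not in the series, so treatment and tumor age cannot be told apart when late single-dose or repeat-dose tumors are set against saline. Of 8 markers of melanocytes and tumor cells listed, 2 were on the panel, S100b and Mcam, and their summed scaled count was 2283 to 3140 in saline and 2292 to 2772 in treated tumors. Within that sum the markers moved opposite ways in repeat-dose tumors against saline, S100b by 1.26 (log2, edgeR adjusted p = 0.0105) and Mcam by -1.06 (adjusted p = 0.0168). The tissue was whole tumor, in which fewer cells of a type and less RNA per cell cannot be told apart.

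Total counts ran from 392596 to 1232726, the lowest being repeat-dose replicate C. A scaled count is the raw count divided by the relative geometric mean of the tumor's 20 housekeeping probes. That mean was 2308.7 to 3034.2 in saline, 1246.3 to 2002.0 in early single-dose, 1217.0 to 1637.9 in late single-dose and 529.9 to 1168.2 in repeat-dose tumors, so treated tumors were scaled upward relative to saline. The lowest raw counts of the 2 dimmest genes were 34 for Adora2a, with a 95% Poisson interval of 23.5 to 47.5, and 35 for Nt5e, with an interval of 24.4 to 48.7. These intervals cover counting error only. Each gene has its own probe, so levels were compared between tumors and not between genes.

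**Figure D1:**
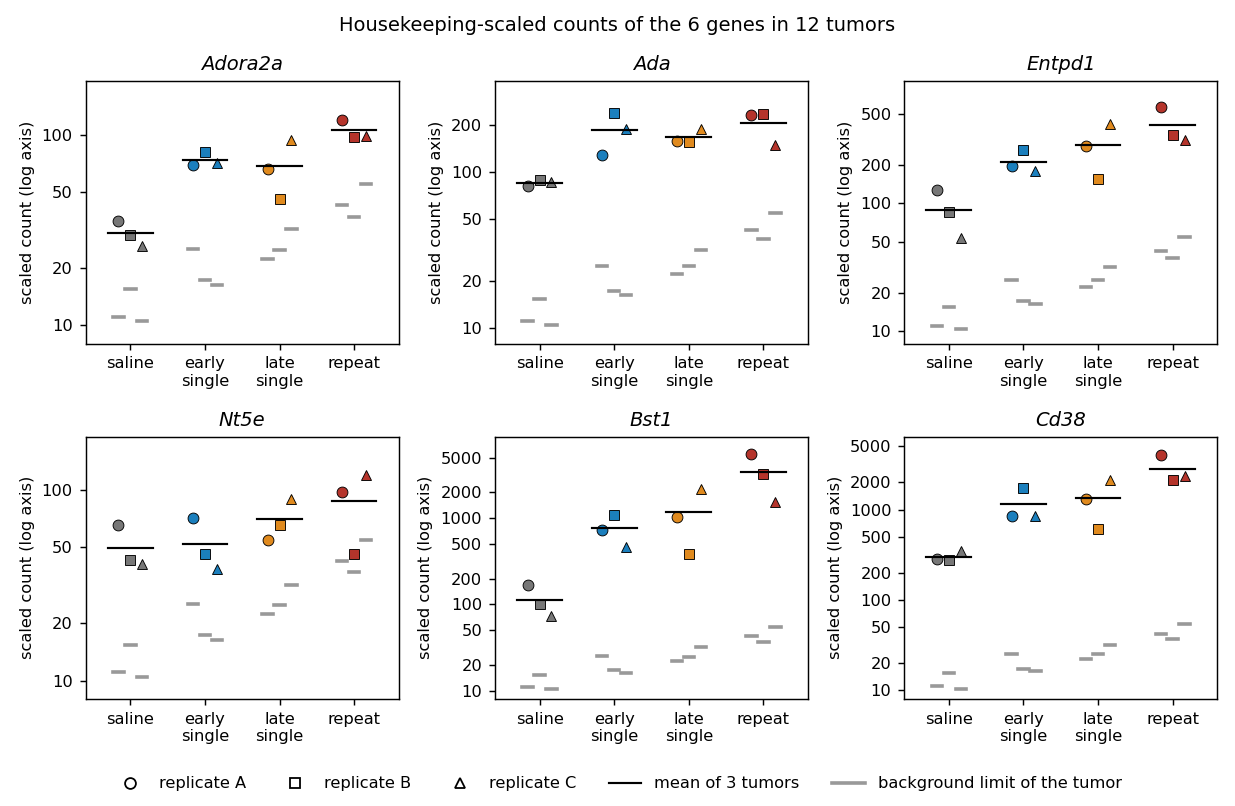
Housekeeping-scaled count (log axis) of the 6 genes in 12 tumors. Points are single tumors, long bars the mean of 3 and short gray bars the tumor's own background limit. Entpd1, Adora2a, Ada, Cd38 and Bst1 are above saline in every treated tumor with this scaling, while the Nt5e groups overlap. Bst1 was chosen for its rise after the repeat dose. Of all tested genes, 49.9% were above saline in every early single-dose, 42.5% in every late single-dose and 64.1% in every repeat-dose tumor. The share for all treated tumors together was not computed. The direction of Ada against saline turns with total-count scaling in late single-dose and repeat-dose tumors.

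The promoter sequences of Cd38 and Nt5e are shown because these were the genes with the largest and the smallest difference from saline among the 5 tested. They are the 250 bases before the transcription start in RefSeq on GRCm38.p6, at chr5:43868559-43868808 for Cd38 and chr9:88327359-88327608 for Nt5e, both on the plus strand. Capitals would mark a motif match, and neither holds one.
Cd38: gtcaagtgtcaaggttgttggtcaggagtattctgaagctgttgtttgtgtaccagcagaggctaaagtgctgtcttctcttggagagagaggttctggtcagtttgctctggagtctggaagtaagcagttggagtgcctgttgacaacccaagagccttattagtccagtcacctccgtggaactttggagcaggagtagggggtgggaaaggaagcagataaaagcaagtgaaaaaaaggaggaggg
Nt5e: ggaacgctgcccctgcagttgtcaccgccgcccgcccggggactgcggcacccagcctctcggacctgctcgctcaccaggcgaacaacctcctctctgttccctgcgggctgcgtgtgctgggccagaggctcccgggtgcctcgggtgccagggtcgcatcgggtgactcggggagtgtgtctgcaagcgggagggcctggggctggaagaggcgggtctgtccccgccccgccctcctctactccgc
The Cd38 sequence has a GC content of 48.8% and 1 CpG, and that of Nt5e 72.0% and 21 CpGs. Medians over 32851 mouse promoters of this length were 52.4% and 6 CpGs.

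Both strands were searched for the interferon-gamma activated site TTCNNNGAA, found in 7.02% of all promoters of this length, and an interferon-stimulated response core, a pair of GAAA letters spaced by 2 bases, found in 2.98%. The hypoxia-inducible factor core ACGTG, found in 16.6%, and the PU.1 core GAGGAA, found in 23.3%, were searched too. Promoter sequences were at hand for 4 of the 6 genes, Ada, Entpd1, Nt5e and Cd38. That of Ada (chr2:163750240-163750489, minus strand) has the letters TTCCGGGAA from -90 to -82 relative to the start. The downstream one of 2 Entpd1 starts (chr19:40659520-40659769, plus strand) has GAGGAA at -235 to -230 and at -227 to -222. No match says only that these letters are not in the window.

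In the genome, Cd38 (chr5:43868809-43912374) and Bst1 (chr5:43818880-43843468) are neighbors, 25340 bases apart with 0 protein-coding genes between them. The others lie apart, Adora2a at chr10:75316877-75334792, Ada at chr2:163726571-163750239, Entpd1 at chr19:40612366-40741602 and Nt5e at chr9:88327609-88372089. All positions are those of RefSeq genes on GRCm38.p6.

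Entpd1, which starts the path from ATP to adenosine, had scaled counts of 127.6, 85.7 and 53.4 in saline replicates A, B and C. Early single-dose tumors had 194.3, 260.4 and 179.5, late single-dose tumors 282.4, 155.7 and 420.7, and repeat-dose tumors 565.7, 344.5 and 311.4. Each treated tumor was above each saline tumor, and repeat-dose tumors were all above early single-dose tumors, while late single-dose tumors overlapped both other treated groups. Group means were 88.9 ± 37.2, 211.4 ± 43.1, 286.3 ± 132.5 and 407.2 ± 138.3 (SD, n = 3).

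Nt5e, which completes that path, had scaled counts of 65.5, 42.9 and 41.2 in saline. Early single-dose tumors had 71.8, 46.2 and 38.5, late single-dose tumors 54.6, 65.9 and 90.0, and repeat-dose tumors 97.7, 46.2 and 119.3. All 4 groups overlapped one another. The means were 49.8 ± 13.6, 52.2 ± 17.4, 70.1 ± 18.1 and 87.7 ± 37.6 (SD, n = 3), in the order saline, early, late and repeat.

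Ada, whose enzyme removes adenosine, had scaled counts of 80.8, 89.2 and 86.4 in saline. Early single-dose tumors had 128.7, 237.6 and 187.9, late single-dose tumors 158.2, 155.7 and 188.8, and repeat-dose tumors 231.8, 233.6 and 148.4. Saline tumors lay close together and below all treated tumors, and the treated groups overlapped. The means were 85.5 ± 4.26, 184.8 ± 54.6, 167.5 ± 18.4 and 204.6 ± 48.7 (SD, n = 3).

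Adora2a, the receptor, had scaled counts of 35.4, 29.7 and 25.9 in saline. Early single-dose tumors had 69.3, 81.1 and 70.9, late single-dose tumors 65.9, 45.9 and 93.8, and repeat-dose tumors 119.6, 97.7 and 98.9. Each treated tumor was above each saline tumor, and repeat-dose tumors were above all single-dose tumors of either age. The means were 30.3 ± 4.77, 73.8 ± 6.42, 68.5 ± 24.0 and 105.4 ± 12.3 (SD, n = 3).

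Cd38 had scaled counts of 282.5, 276.1 and 347.6 in saline. Early single-dose tumors had 852.5, 1725 and 849.6, late single-dose tumors 1309, 605.8 and 2122, and repeat-dose tumors 4021, 2148 and 2354. Repeat-dose tumors were above all other tumors, although replicate B at 2148 was close to late single-dose replicate C at 2122. The means were 302.1 ± 39.6, 1142 ± 505, 1346 ± 759 and 2841 ± 1027 (SD, n = 3).

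Bst1 had scaled counts of 167.6, 101.2 and 73.2 in saline. Early single-dose tumors had 737.4, 1097 and 466.0, late single-dose tumors 1043, 380.2 and 2163, and repeat-dose tumors 5526, 3229 and 1545. Repeat-dose replicates A and B were above all other tumors, and repeat-dose replicate C, the tumor with the fewest counts, was below late single-dose replicate C. The means were 114.0 ± 48.5, 766.9 ± 316.7, 1195 ± 901 and 3433 ± 1998 (SD, n = 3). The fitted fold of repeat dose over saline was 30.1 with housekeeping scaling, and lower with the other scalings given below.

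By group mean, Entpd1, Nt5e, Bst1 and Cd38 ran in the order saline, early, late and repeat, while Ada and Adora2a had the early mean above the late one. Within the late single-dose group, every gene but Nt5e ran C, A, B from high to low. The median tested gene of those tumors ran the same way, at 8.40 in C, 7.91 in A and 7.36 in B on the log2 scale of the scaled counts.

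A single dose was compared with saline at the same tumor age to ask what changed within 2 days. Cd38, Adora2a, Entpd1 and Ada rose, and Nt5e did not pass, in edgeR's quasi-likelihood test of housekeeping-scaled counts. Thus 4 of 5 genes rose (Bst1 not counted), against 30.5% of all 729 genes tested. Here and in the comparisons below, such shares describe genes that were chosen with earlier results known. The median log2 fold change of the 5 was 1.25, against 0.56 for all genes. The groups did not overlap for 4 of 5, against 49.9% of all genes.

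Cd38 rose by 1.92 ± 0.47 (log2 ± SE, edgeR adjusted p = 0.0131), which is 1.36 above the median log2 fold change of all genes. Adora2a rose by 1.28 ± 0.28 (edgeR adjusted p = 0.00809), or 2.43-fold and 0.72 above that median. Entpd1 rose by 1.25 ± 0.42 (edgeR adjusted p = 0.0462, relative 0.69) and Ada by 1.11 ± 0.27 (adjusted p = 0.0116, relative 0.55). Nt5e was at 0.06 ± 0.39 (edgeR adjusted p = 0.948), with a 95% interval of -0.81 to 0.93, and at -0.50 relative to the median fold change. Bst1, as a description, was at 2.75 ± 0.68, or 2.19 relative to the median fold change.

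The calls depended on how the tumors were scaled. With TMM, a scaling that takes most genes as unmoved, 143 genes rose (19.6%) and 54 fell, and 2 of 5 rose here, Cd38 at 1.27 (edgeR adjusted p = 0.0146) and Adora2a at 0.65 (adjusted p = 0.0466). With the total count, 113 genes rose (15.5%) and 161 fell, and 1 of 5 rose here, Cd38 at 0.86 (edgeR adjusted p = 0.0383). With the positive controls, 85 genes rose (11.7%) and 2 fell, and 0 of 5 passed, Cd38 being at 1.57 (edgeR adjusted p = 0.0818). DESeq2 with its own size factors called 2 of 5 higher, against 23.5% of all genes. Nt5e was positive with housekeeping scaling and at -0.59, -0.91 and -0.40 with TMM, total count and positive controls, none of which passed.

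Single tumors also decided some of these calls. Without early single-dose replicate B the edgeR adjusted p of Ada was 0.055 and of Cd38 0.0565, and without saline replicate B that of Cd38 was 0.062. That of Entpd1 was 0.127 and 0.154 without saline B and C, and 0.0775, 0.15 and 0.06 when early single-dose A, B or C was dropped. It was 0.064 without late single-dose A and 0.0604 and 0.0518 without repeat-dose B and C, tumors that enter only the shared estimate of the spread. Entpd1 did not pass with the negative mean subtracted (edgeR adjusted p = 0.0595) or with the replicate letter as a block (0.0513) either.

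**Figure D2:**
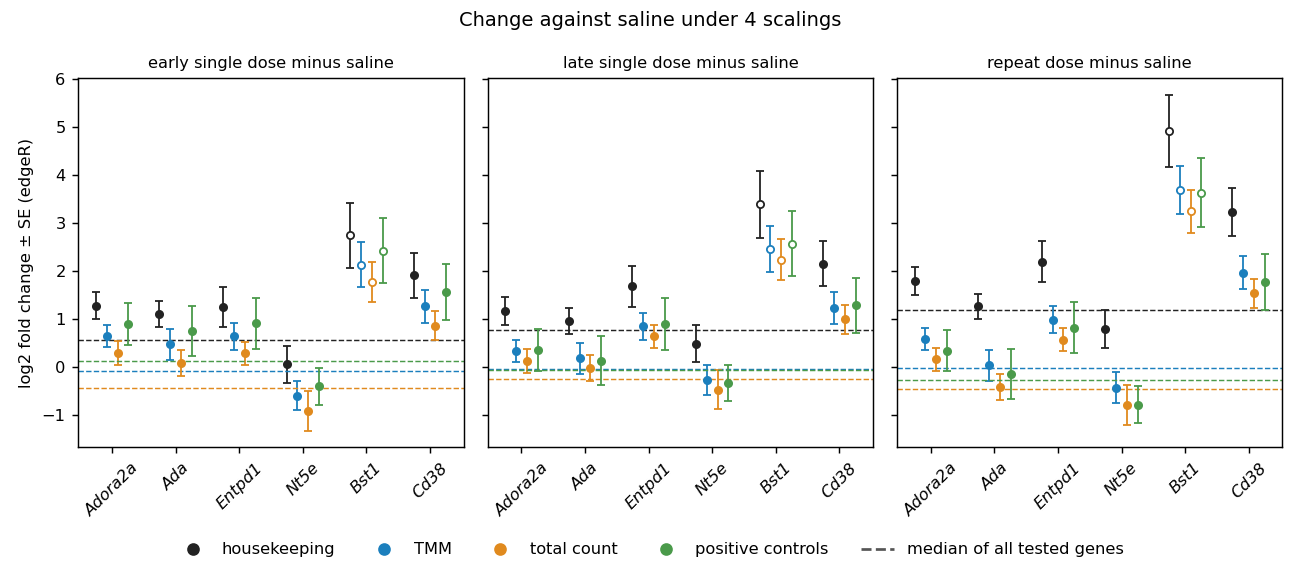
Log2 fold change of each gene against saline (bars, standard error) under 4 ways of scaling the tumors, with the median of all tested genes as dashed lines. Cd38, Adora2a, Entpd1 and Bst1 (open circles, no test, chosen for its rise after 2 doses) stay above 0 under each. Nt5e is above 0 with housekeeping scaling only, and Ada drops to -0.41 with the total count after the repeat dose.

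Late single-dose and repeat-dose tumors were compared with the same saline tumors, so these values share their controls with those above. In late single-dose tumors 4 of 5 genes rose, against 39.1% of all genes, and the groups did not overlap for 4 of 5, against 42.5%. Cd38 rose by 2.15 ± 0.47 (edgeR adjusted p = 0.00838), Entpd1 by 1.69 ± 0.43 (adjusted p = 0.0152), Adora2a by 1.17 ± 0.28 (adjusted p = 0.0124) and Ada by 0.97 ± 0.27 (adjusted p = 0.0183). The median of all genes was 0.78, and relative to it these genes were at 1.37, 0.91, 0.39 and 0.19. Nt5e was at 0.49 ± 0.39 (edgeR adjusted p = 0.353), with a 95% interval of -0.37 to 1.36, and Bst1, described only, at 3.39 ± 0.70.

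With TMM, 135 genes rose (18.5%) and 65 fell in late single-dose tumors, and 2 of 5 rose here, Cd38 (1.23, edgeR adjusted p = 0.0209) and Entpd1 (0.85, adjusted p = 0.0413). With the total count, 110 rose (15.1%) and 140 fell and Cd38 passed (1.00, edgeR adjusted p = 0.0238), and Ada was at -0.01. With the positive controls, 38 rose (5.21%) and 1 fell, and 0 of 5 passed. DESeq2 with its own factors called 2 of 5 higher, against 23.0% of all genes. Without saline replicate B or C, or without late single-dose C, Entpd1 (edgeR adjusted p = 0.0608, 0.061 and 0.0636) and Ada (0.0647, 0.0633 and 0.0654) did not pass. Adora2a did not pass without saline B (edgeR adjusted p = 0.0539) or C (0.0601). In an edgeR fit of these 6 tumors alone 0 of 729 genes passed, 320 having an unadjusted p under 0.05, and Cd38 had an adjusted p of 0.0576.

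In repeat-dose tumors against saline 4 of 5 genes rose, against 59.4% of all genes, and the groups did not overlap for 4 of 5, against 64.1%. Cd38 rose by 3.23 ± 0.49 (edgeR adjusted p = 0.00077), or 9.4-fold, and Entpd1 by 2.20 ± 0.43 (adjusted p = 0.0019). Adora2a rose by 1.80 ± 0.29 (edgeR adjusted p = 0.000869) and Ada by 1.27 ± 0.27 (adjusted p = 0.00244). The median of all genes was 1.19, and relative to it Cd38 was at 2.04, Entpd1 at 1.01, Adora2a at 0.61 and Ada at 0.07. Nt5e was at 0.80 ± 0.40 (edgeR adjusted p = 0.104), with a 95% interval of -0.08 to 1.68, and passed without repeat-dose replicate B (1.12, adjusted p = 0.0242).

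Cd38 passed in repeat-dose tumors under each alternative scaling, at 1.96 with TMM (edgeR adjusted p = 0.000735), 1.54 with the total count (adjusted p = 0.00104) and 1.77 with the positive controls (adjusted p = 0.0252). These scalings called 234 genes higher (32.1%) and 169 lower, 159 (21.8%) and 250, and 115 (15.8%) and 157. Of the 5 genes, 3, 1 and 1 rose with them, and DESeq2 with its own factors called 3 higher, against 33.5% of all genes. Entpd1 passed with TMM (0.99, edgeR adjusted p = 0.0106), and not with the total count (0.57, adjusted p = 0.0583) or the positive controls (0.82, adjusted p = 0.208). Adora2a likewise passed with TMM (0.59, edgeR adjusted p = 0.0429) and not with the total count (0.17, adjusted p = 0.573) or the positive controls (0.35, adjusted p = 0.53). Ada was at 0.05 with TMM, -0.41 with the total count and -0.13 with the positive controls (edgeR adjusted p = 0.909, 0.21 and 0.844). Nt5e was at -0.42, -0.79 and -0.78 (edgeR adjusted p = 0.264, 0.114 and 0.107). Bst1, as a description, was at 3.69, 3.24 and 3.63 with these scalings, against 4.91 with housekeeping scaling.

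**Figure D3:**
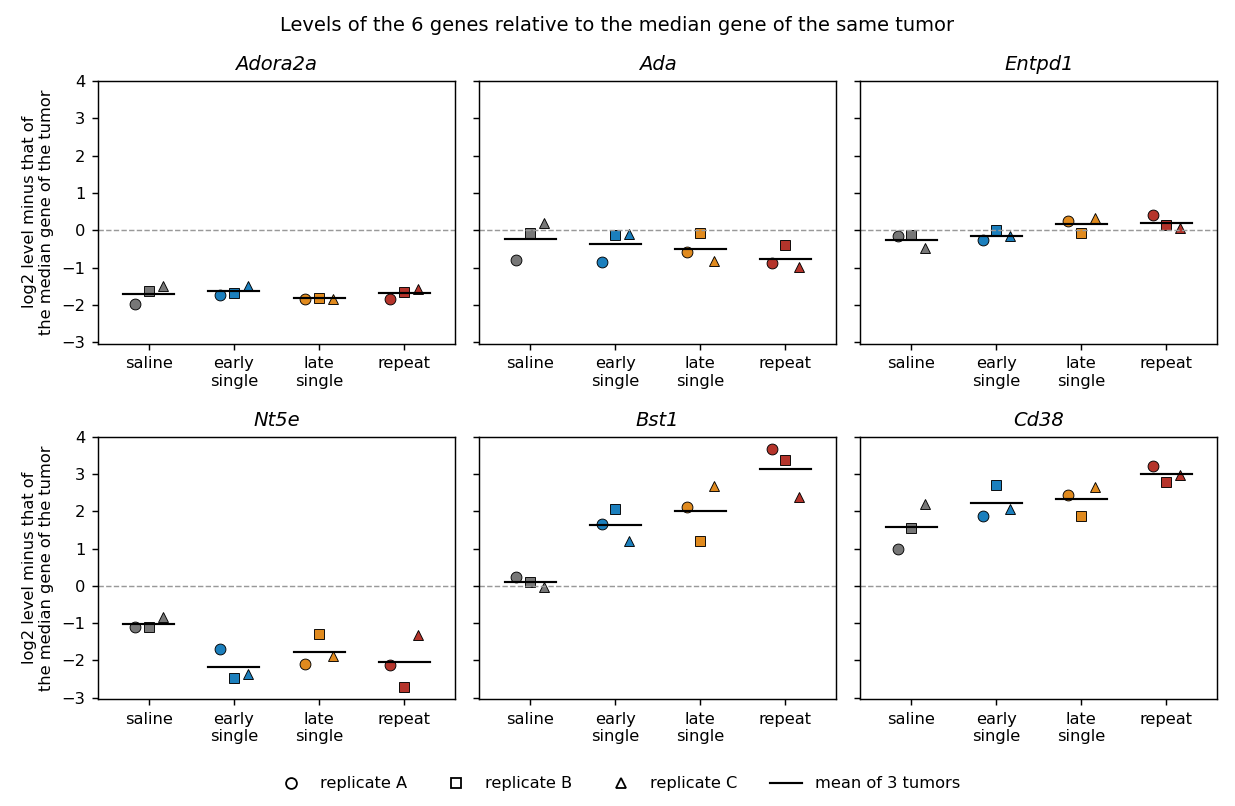
Log2 level of each gene minus that of the median tested gene in the same tumor, a measure that common scaling of a tumor hardly moves. Points are tumors and bars means of 3. Adora2a stays between -1.98 and -1.49, and Cd38 and Bst1 lie highest in the repeat-dose group by mean. Nt5e is lower in every treated tumor than in any saline tumor, as for 27.7% of all tested genes.

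Set against the level of the median tested gene of the same tumor, the genes moved apart. This measure is not the fold change relative to the median fold change of all genes, and the 2 can differ. Adora2a kept within -1.98 to -1.49 (log2) over all 12 tumors. Nt5e was at -1.11, -1.11 and -0.84 in saline, -1.68, -2.47 and -2.35 in early single-dose, -2.11, -1.30 and -1.89 in late single-dose and -2.12, -2.72 and -1.31 in repeat-dose tumors. Every treated tumor was thus below every saline tumor in this measure of Nt5e, as for 27.7% of all tested genes. The scaled counts of Nt5e overlapped between all groups, and no comparison of them with saline passed.

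Cd38 was at 0.99, 1.55 and 2.20 relative to the median gene in saline and at 3.23, 2.79 and 2.98 in repeat-dose tumors. The single-dose groups lay between 1.87 and 2.72, and saline replicate C was inside that range. Bst1 ran from -0.03 to 0.24 in saline, 1.21 to 2.07 in early single-dose, 1.21 to 2.68 in late single-dose and 2.38 to 3.69 in repeat-dose tumors. Ada ran from -0.995 to 0.21 and Entpd1 from -0.48 to 0.40 over all tumors. Ada was at -0.81, -0.07 and 0.21 in saline and at -0.85, -0.14 and -0.10 in early single-dose tumors. Its fold change between these groups was nevertheless 0.55 above the median fold change of all genes.

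The repeat dose was compared with a single dose at the same tumor age, which asks what a further dose added. The groups also differed in the time since the last dose, 2 days against 8, and the added dose and that time cannot be told apart. Adora2a and Cd38 did not overlap between the groups, 2 of 5 genes against 10.7% of all genes, but neither passed the adjusted test. Cd38 was at 1.08 ± 0.46 with a 95% interval of 0.07 to 2.09 (edgeR adjusted p = 0.425), and Adora2a at 0.63 ± 0.28 with an interval of 0.01 to 1.25 (adjusted p = 0.425). Entpd1 was at 0.51 ± 0.42 (edgeR adjusted p = 0.521), Nt5e at 0.31 ± 0.40 (adjusted p = 0.678) and Ada at 0.30 ± 0.27 (adjusted p = 0.558). Bst1, as a description, was at 1.52 ± 0.65, and at 2.27 without late single-dose replicate C. The median of all genes was 0.41.

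In edgeR with housekeeping scaling 0 of 729 genes passed in that comparison (0.0% in either direction), and 77 had an unadjusted p under 0.05, Cd38 and Adora2a among them. DESeq2 called 2 genes higher and 1 lower with housekeeping factors and 5 and 5 with its own, with 0 of the 5 genes here among them, and limma on the authors' values called 0. Without late single-dose replicate C, Adora2a passed in edgeR (0.92, adjusted p = 0.0489). With TMM, Ada was at -0.14 and Nt5e at -0.15, on the other side of 0.

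Late single-dose tumors were set against early single-dose tumors to see how levels differed 8 days against 2 days after 1 dose. The groups also differed in tumor age, and that age and the time since the dose cannot be told apart. All 6 genes overlapped between the groups, and 6.72% of all genes were higher without overlap. Values were -0.11 ± 0.28 for Adora2a, -0.14 ± 0.26 for Ada, 0.44 ± 0.42 for Entpd1 and 0.43 ± 0.39 for Nt5e. Cd38 was at 0.24 ± 0.45, and the edgeR adjusted p of these 5 genes was 0.903 to 0.998. Bst1, described only, was at 0.64 ± 0.64.

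The 95% interval of Cd38 in that comparison reached from -0.77 to 1.24, so that a 2-fold rise was inside it. Without late single-dose replicate C, Bst1 was at -0.11. In edgeR with housekeeping scaling 0 of 729 genes passed (0.0% in either direction), with 57 at an unadjusted p under 0.05. With TMM 8 genes were called higher and 6 lower, and with the total count 10 and 6. DESeq2 called 16 higher and 8 lower with housekeeping factors and 22 and 35 with its own, and limma called 0. None of the 5 tested genes was among those called.

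Repeat-dose and early single-dose tumors were both removed 2 days after their last dose. They differed in age and in the number of doses, which cannot be told apart. Adora2a, Entpd1 and Cd38 did not overlap, 3 of 5 genes against 35.0% of all genes. Cd38 was at 1.31 ± 0.46 (edgeR adjusted p = 0.146), Entpd1 at 0.95 ± 0.42 (adjusted p = 0.2), Nt5e at 0.74 ± 0.40 (adjusted p = 0.272), Adora2a at 0.52 ± 0.28 (adjusted p = 0.272) and Ada at 0.15 ± 0.26 (adjusted p = 0.729). Bst1, described only, was at 2.16 ± 0.66, and the median of all genes at 0.49. With TMM, Adora2a was at -0.07 and Ada at -0.43.

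In edgeR with housekeeping scaling 0 of 729 genes passed between those groups (0.0% in either direction), 176 having an unadjusted p under 0.05. Other edgeR settings called 79 higher and 4 lower (only these 6 tumors fitted), 15 and 4 (TMM), 17 and 11 (total count) and 16 and 2 (genes above background in all samples), with 0 of the 5 genes here in any of these. DESeq2 with housekeeping factors called 74 higher (10.4%) and 5 lower of 714 genes given an adjusted p, and 1 of 5 here, Cd38 (adjusted p = 0.0459). With its own factors DESeq2 called 37 and 20, with 0 of these genes, and limma called 6 higher.

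The effect of the repeat dose, against late single-dose tumors, was compared with that of the first dose, against saline. The difference was -0.66 ± 0.40 for Adora2a, -0.82 ± 0.37 for Ada, -0.74 ± 0.59 for Entpd1, 0.25 ± 0.56 for Nt5e and -0.84 ± 0.64 for Cd38 (edgeR adjusted p = 0.67, 0.447, 0.752, 0.988 and 0.752). The median of all genes was -0.22. None of the 5 passed, and in edgeR with housekeeping scaling 0 of 729 genes did (0.0%), with 79 at an unadjusted p under 0.05. Total-count scaling called 5 genes lower, TMM 1 and the stricter background filter 1, with none of these 5 among them. DESeq2 called 0 higher and 18 lower with housekeeping factors and 2 and 35 with its own, with none of these genes (Adora2a and Nt5e had no DESeq2 adjusted p), and limma called 0.

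Ratios of 2 probes within a tumor do not depend on scaling, but background counts do enter them. The ratio of Entpd1 to Nt5e, the enzymes of the path from ATP to adenosine, was 1.95, 2.00 and 1.30 in saline, 2.71, 5.63 and 4.66 in early single-dose, 5.17, 2.36 and 4.68 in late single-dose and 5.79, 7.46 and 2.61 in repeat-dose tumors. Each treated tumor was above each saline tumor, and the treated groups overlapped. Whether other pairs of genes separate in this way was not tested. Geometric means were 1.72, 4.14, 3.85 and 4.83. The difference among the 4 groups did not pass an exact permutation test over the 369600 assignments (p = 0.0679, 0.136 adjusted over the 2 ratios tested), and did so without repeat-dose replicate C (exact adjusted p = 0.034). With the negative mean subtracted, the exact permutation p was 0.0454 and 0.0908 after adjustment, which did not pass.

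The ratio of Ada to Nt5e, the enzymes that remove and make adenosine, was 1.24, 2.08 and 2.10 in saline, 1.79, 5.14 and 4.88 in early single-dose, 2.90, 2.36 and 2.10 in late single-dose and 2.37, 5.06 and 1.24 in repeat-dose tumors. The groups overlapped, and the exact permutation p was 0.427 before and after adjustment. The ratio of Bst1 to Cd38, given as a description, was 0.593, 0.366 and 0.211 in saline and 0.865, 0.636 and 0.549 in early single-dose tumors. It was 0.797, 0.628 and 1.02 in late single-dose and 1.37, 1.503 and 0.656 in repeat-dose tumors, so that repeat-dose replicate C was within the range of the single-dose tumors.

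**Figure D4:**
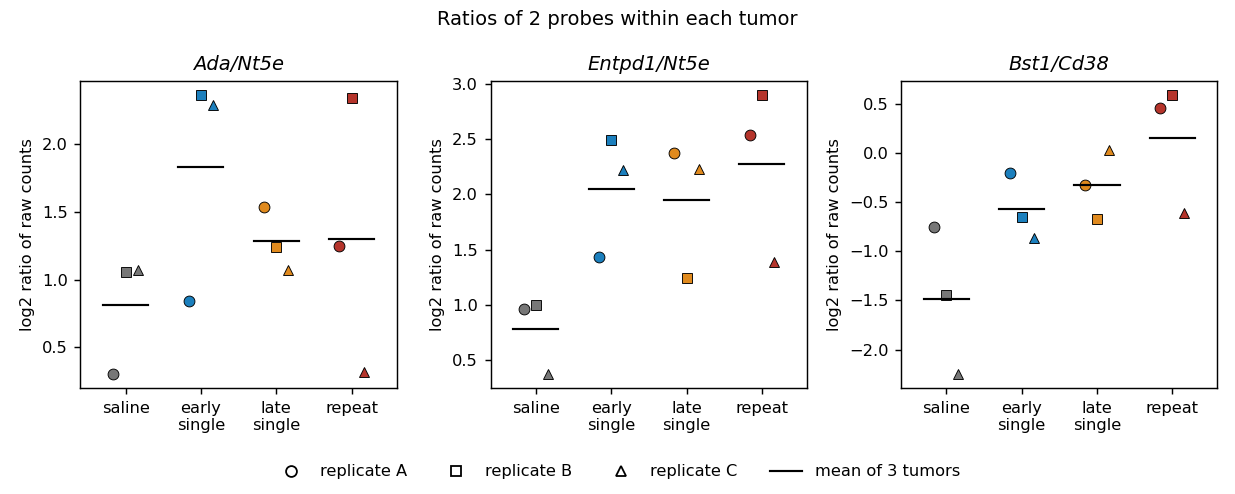
Log2 ratio of raw counts of 2 probes in each tumor, with the mean of 3 as a bar. Treated tumors lie above all saline tumors for Entpd1/Nt5e, while the groups overlap for Ada/Nt5e and in part for Bst1/Cd38.

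Among the 593 other genes with a mean scaled count of at least 50, those whose level relative to the median gene ran most like that of each gene were found by Pearson's r over the 12 tumors. For Bst1 they were Casp1 (0.989), Msr1 (0.978) and Gzmk (0.972), and for Entpd1 Abcg1 (0.948), Ncf4 (0.944) and Cd84 (0.933). For Cd38 they were Ifng (0.879), Nfkbia (0.852) and Il12rb2 (0.846). Msr1 is a scavenger receptor of macrophages, Ncf4 a part of the phagocyte oxidase, and Ifng encodes interferon-gamma.

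Nt5e ran most like Btla (0.953), Trem1 (0.951) and Cd22 (0.947). Ada ran most like Litaf (0.804) and Clu (0.779), and Adora2a like Myd88 (0.779), Tnfrsf1a (0.770) and Irf2 (0.768). Among the 6, r was 0.839 for Entpd1 with Bst1, 0.836 for Bst1 with Cd38 and -0.73 for Nt5e with Bst1. After each tumor's group mean was taken off, these were 0.772, 0.401 and -0.64. The tumors of such an r share their groups, their housekeeping scaling and their depth, so it is a description.

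Of 30 listed neighbors of these genes in purine and NAD metabolism 1 was on the panel, Dpp4, whose product binds adenosine deaminase in humans. Against saline it was at 0.61 in the early group, 0.99 in the late one and 0.92 after the repeat dose (edgeR adjusted p = 0.284, 0.0688 and 0.068). Of 10 listed genes of cyclic AMP response and hypoxia 7 were on the panel, and 0, 2 and 4 of them rose in the same order. These counts were no higher than the shares of all genes, 30.5%, 39.1% and 59.4%. In repeat-dose tumors these were Tgfb1 at 1.503 (edgeR adjusted p = 0.00183), Creb5 at 1.46 (adjusted p = 0.00564), Il10 at 1.49 (adjusted p = 0.0123) and Hif1a at 0.83 (adjusted p = 0.00624). Relative to the median log2 fold change of all genes they were at 0.31, 0.27, 0.30 and -0.36, so Hif1a lay below it. Creb1 (-0.10), Vegfa (0.12) and Crebbp (0.42) did not pass.

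Several of the lists of cell type markers, but not all, also rose in treated tumors, and the part of cell types in the results was not tested. The counts of markers that rose are for early single-dose, late single-dose and repeat-dose tumors with housekeeping scaling, where 30.5%, 39.1% and 59.4% of all genes rose against saline. The summed scaled count of 10 macrophage markers was 967 to 3505 in saline, 4978 to 10944 in early single-dose, 5608 to 14968 in late single-dose and 10898 to 32652 in repeat-dose tumors, and 3, 8 and 10 of the 10 rose against saline, near the share of all genes in the early group and above it in the others. That of 8 neutrophil markers, of which Camp was below background in all tumors, was 308 to 507, 1494 to 3578, 1285 to 2699 and 2986 to 6033. Of the 7 tested 2, 4 and 4 rose, near the share of all genes in the early and repeat-dose groups and above it in the late one. That of 10 NK cell markers was 463 to 927, 1985 to 2390, 1093 to 2529 and 2290 to 3751, and 8, 7 and 8 rose, above the shares of all genes. That of 10 T cell markers was 415 to 841, 722 to 978, 1049 to 2815 and 1977 to 2293, and 1, 6 and 6 rose. These counts were below the share of all genes in the early group, above it in the late one and near it in the repeat-dose group.

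The sum of 7 regulatory T cell markers, a cell type known to carry CD39 and CD73 in mice, was 396 to 697 in saline, 1534 to 2398 in early single-dose, 518 to 1334 in late single-dose and 1556 to 3047 in repeat-dose tumors. Foxp3, the factor that defines these cells, was below background in all late single-dose and repeat-dose tumors. The background limit was 10.48 to 15.41 scaled counts in saline, 22.27 to 31.78 in late single-dose and 37.08 to 54.87 in repeat-dose tumors. A gene near that limit can thus drop below it without a fall in its scaled count. Of these 7 markers 2, 1 and 4 rose against saline, no more than the shares of all genes. The sum of 9 B cell markers was 282 to 404, 350 to 697, 450 to 707 and 483 to 1019, and that of 8 endothelial markers was 3398 to 4112, 4016 to 4270, 3762 to 4939 and 4295 to 5329. Of the B cell markers 1, 1 and 3 rose, and of the endothelial markers 0, 0 and 2, below the shares of all genes. In the same order 1, 0 and 2 endothelial markers fell. Endothelial cells and fibroblasts also carry CD73, and the sum of 6 fibroblast markers spread widely within groups, from 2598 to 16236 in saline and from 4781 to 24244 in repeat-dose tumors. Of the fibroblast markers 1 rose in each comparison with saline, below the shares of all genes.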

How the data were processed

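RNA from formalin-fixed tumor tissue was hybridized to 750 gene, 20 housekeeping, 6 positive and 8 negative control probes. Per the file headers, each sample's deposited file gave unscaled whole-number counts. The series table held normalized signal that the authors made in nSolver, per the labels. Its version was not given in the sources used here. A gene's value there was its raw count times 1 factor per sample, within 0.00882 percent for counts of at least 100.

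The 729 genes above background in at least 3 samples were fitted on raw counts with edgeR 4.0.16 (robust glmQLFit, glmQLFTest) in R 4.3.3. All 12 samples entered 1 fit of 4 groups, whose library sizes followed the housekeeping geometric mean. P-values were adjusted by Benjamini-Hochberg over 729 genes, with a threshold of 0.05. The 95% intervals of fold changes used the same fit. Scaled counts are means ± SD, fold changes log2 ± SE. Levels relative to the median gene used log2(scaled count + 1). The ratio tests permuted tumors among groups, 2-sided by their F statistic.

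The labels state separate mice. The design text gives 4 mice for the repeat-dose group in 1 place, and 3 were analysed here. Pairs of replicates had chi-square values of 24.5 to 155.8 per degree of freedom, so no replicate of a group was present in duplicate. The members, gene lists and tests were chosen with earlier results of these data known. Genes named by likeness were the 3 with the highest r for each gene, of which 1 is not reported here. Alternatives were TMM (edgeR), total-count and positive-control scaling, the 10 steadier housekeeping probes, DESeq2 1.42.0 under both kinds of size factors, limma 3.58.1 on the authors' signal, 2 other filters, background subtraction, fits of only the groups compared, a replicate block and leaving out each tumor. The tests were tried on simulated data.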

Additional observations from a re-analysis of the deposited data

How the results depend on the processing

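The calls against saline depended mostly on scaling and on single tumors. Of the 5 tested genes 4 passed in each comparison with saline with housekeeping scaling. In early single-dose tumors 2 passed with TMM, 1 with the total count, 0 with the positive controls, 2 with DESeq2's own factors and 1 to 4 when each tumor was left out in turn. In late single-dose tumors the counts were 2, 1, 0, 2 and 1 to 4, and 0 when only the groups compared were fitted, a fit with fewer samples. In repeat-dose tumors 1 passed with the total count, 1 with the positive controls and 4 to 5 with a tumor left out. For repeat against late single dose 0 to 1 passed with a tumor left out, and for repeat against early single dose 1 with DESeq2 and housekeeping factors. The adjusted exact p of the Ada to Nt5e ratio ran from 0.149 to 0.709 with a tumor left out, and that of Entpd1 to Nt5e from 0.034 to 0.451. Beyond each alternative's own construction, the cause was not tested.

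Log2 fold changes that turned sign are given in the order TMM, total count, positive controls and DESeq2's own factors. Nt5e turned in early single dose against saline (-0.59, -0.91, -0.40, -0.64, and -0.077 with background subtracted), late single dose against saline (-0.27, -0.47, -0.33, -0.29), repeat dose against saline (-0.42, -0.79, -0.78, -0.44) and repeat against late single dose (-0.15, -0.32, -0.45, -0.16). Ada turned in repeat against late single dose (-0.14, -0.40, -0.28, -0.14) and repeat against early single dose (-0.43, -0.50, -0.89, -0.39), and Adora2a in the latter (-0.065, -0.13, -0.55, -0.032). Total-count scaling also turned Ada in late single dose (-0.01) and repeat dose against saline (-0.41) and Entpd1 in repeat against late single dose (-0.069). Positive-control scaling turned Ada in repeat dose against saline (-0.13), Adora2a (-0.007) and Entpd1 (-0.077) in repeat against late single dose, and Entpd1 (-0.09) and Nt5e (-0.38) in repeat against early single dose. It also turned Entpd1 (-0.013) and Cd38 (-0.27, with -0.037 under TMM) in late against early single dose, and Nt5e (-0.05) in the difference of the effects.

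With a tumor left out, Nt5e ran from -0.23 to 0.30 in early single dose against saline and from -0.023 to 0.57 in the difference of the effects. In late against early single dose Adora2a ran from -0.40 to 0.11, Ada from -0.35 to 0.078, Bst1 from -0.11 to 1.06 and Cd38 from -0.26 to 0.66. Ada ran from -0.05 to 0.37 in repeat against early single dose.

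Groups share replicate letters, but the letters did not pair tumors: 8 of 18 same-letter pairs had deviations correlated above 0.1 (r from -0.65 to 0.596, against -0.71 to 0.642 for other letters). With a replicate block Entpd1 had an edgeR adjusted p of 0.0513 in early single dose against saline, and the exact adjusted p was 0.385 for Ada to Nt5e and 0.264 for Entpd1 to Nt5e. The background limit was 37.08 to 54.87 scaled counts in repeat-dose tumors, against 10.48 to 15.41 in saline.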
